A study of Mus musculus with 8 samples.

Results

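The inflammatory cytokines of myeloid cells described here are 10 genes, Tnf, Il1a, Il1rn, Il6, Il10, Osm, Csf1, Il16, Tnfsf13b and Mif. They were taken by symbol from the 24062 genes of a raw count table, and all 10 were found. The libraries hold total RNA of immature myeloid cells (IMCs) grown out of C57BL/6 marrow. The mice were aged 2 months and the cells were kept for 3 days in 40 ng/mL of M-CSF, the protein that Csf1 encodes. There were 4 groups of 2 libraries. PARP1 WT cells carried PARP1 flox/flox without Cre and PARP1CKO cells carried the same alleles with lysozyme-Cre (LyzM-Cre), a driver active in the myeloid lineage. PARP2 WT and PARP2CKO cells differed in the same way at PARP2 flox/flox. The study compared each CKO with littermate controls, so the effect of the deletion and that of Cre itself cannot be told apart. Nothing in the labels says that the libraries of a group came from separate animals, and p-values measure the spread between these libraries only.

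Myeloid cells release cytokines when pattern receptors or other cytokines switch on NF-kB, AP-1 and STAT factors. TNF, IL-1 alpha, IL-6 and oncostatin M promote inflammation, while IL-10 and the IL-1 receptor antagonist restrain it. CSF1 keeps macrophages and osteoclast precursors alive, BAFF (Tnfsf13b) keeps B cells alive, IL-16 draws CD4-bearing cells, and MIF is stored ready-made and acts through CD74 and CD44. Protein release was not measured here, and mRNA level is the only readout.

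Sequences before the start sites are shown for the genes that span the patterns below. Csf1 and Il1a varied most between libraries, whereas Tnf and Il6 are classical NF-kB genes that lay far apart in level. Each is the 250 bases before the start site in RefSeq for GRCm38.p6, written 5′ to 3′ on the strand of the gene, with motif matches in capitals. The positions are chr3:107760470-107760719, minus strand, for Csf1, chr2:129309973-129310222, minus strand, for Il1a, chr17:35202008-35202257, minus strand, for Tnf, and chr5:30012864-30013113, plus strand, for Il6.
Csf1: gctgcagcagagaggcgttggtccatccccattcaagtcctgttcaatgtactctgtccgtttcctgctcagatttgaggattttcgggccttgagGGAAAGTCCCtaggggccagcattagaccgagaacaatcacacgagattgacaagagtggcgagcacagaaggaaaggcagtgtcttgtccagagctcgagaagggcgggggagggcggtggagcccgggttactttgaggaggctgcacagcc
Il1a: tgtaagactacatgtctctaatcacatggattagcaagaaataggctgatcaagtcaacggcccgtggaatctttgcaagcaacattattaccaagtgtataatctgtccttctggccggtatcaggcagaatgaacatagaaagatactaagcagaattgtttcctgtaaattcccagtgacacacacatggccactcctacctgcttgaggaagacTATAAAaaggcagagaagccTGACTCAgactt
Tnf: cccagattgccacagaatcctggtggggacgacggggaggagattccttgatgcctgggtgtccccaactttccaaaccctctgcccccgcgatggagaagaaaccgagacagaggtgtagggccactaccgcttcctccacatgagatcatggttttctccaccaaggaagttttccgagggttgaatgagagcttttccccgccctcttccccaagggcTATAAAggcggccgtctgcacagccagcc
Il6: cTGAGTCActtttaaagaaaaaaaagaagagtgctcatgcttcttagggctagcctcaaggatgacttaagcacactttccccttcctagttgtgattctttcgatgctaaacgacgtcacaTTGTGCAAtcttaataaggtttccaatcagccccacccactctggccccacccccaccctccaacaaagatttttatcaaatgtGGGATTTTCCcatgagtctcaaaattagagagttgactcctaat

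In the Csf1 sequence the capitals mark an NF-kB match on the opposite strand, beginning 154 bases before the start. In Il1a they mark a TATA match at 32 and an AP-1 match at 12 bases before the start, and in Tnf a TATA match at 29 bases. In Il6 they mark an AP-1 match at 249, a C/EBP match at 128 and an NF-kB match at 44 bases before the start. The motifs searched on both strands were a kappaB consensus for NF-kB and the letters TGANTCA for AP-1, TTGNGCAA for C/EBP, TGACGTCA for CRE and TATAAA for TATA. No match overlapped another. Of 32851 promoters in the table, 0.356% held the NF-kB motif, 6.75% the letters of AP-1, 2.61% those of C/EBP, 1.55% those of CRE and 12.4% those of TATA. The table had 13 start sites for 8 of the 10 genes. Of these 8, the NF-kB motif stood before a start of 3, AP-1 letters of 5, TATA letters of 2, C/EBP letters of 1 and CRE letters of 1. A gene was counted if any of its starts had a match. The percentages above are per promoter, so the units differ. The gene with the CRE match was Mif, and the third gene with the NF-kB motif was Il16. A match is a description of letters and not a binding site. Osm and Il10 were not matched.

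Cytokine mRNA levels in the IMCs differed widely between genes. Taken as RPKM (counts scaled by library size, TMM factor and exon length), Mif was highest with a mean of 172 over 8 libraries, followed by Tnf with 38.5 and Il1rn with 7.39. Osm (3.90 RPKM), Il16 (3.69) and Csf1 (3.49) came next, and Il10 (1.56), Il1a (0.681) and Tnfsf13b (0.328) were lower. Il6 was last with 0.0599 RPKM.

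Mif (137 to 186 RPKM), Tnf (33.2 to 42.9) and Il1rn (5.70 to 9.06) each lay clear of their neighbours in this order, although the highest Csf1 library (6.39) passed the lowest Il1rn library. Osm, Il16 and Csf1 overlapped and have no firm order, and Csf1 lay above Il10 except in both PARP2CKO libraries. The pooled range of Il1a overlapped those of Il10 and of Tnfsf13b, but within each of the 8 libraries Il10 was above Il1a and Il1a above Tnfsf13b. Il6 lay below all others in every library. Mif is uncertain as a level, because 38.3% of the 75-base windows along its transcripts also occur in 4 other annotated genes.

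**Figure D1:**
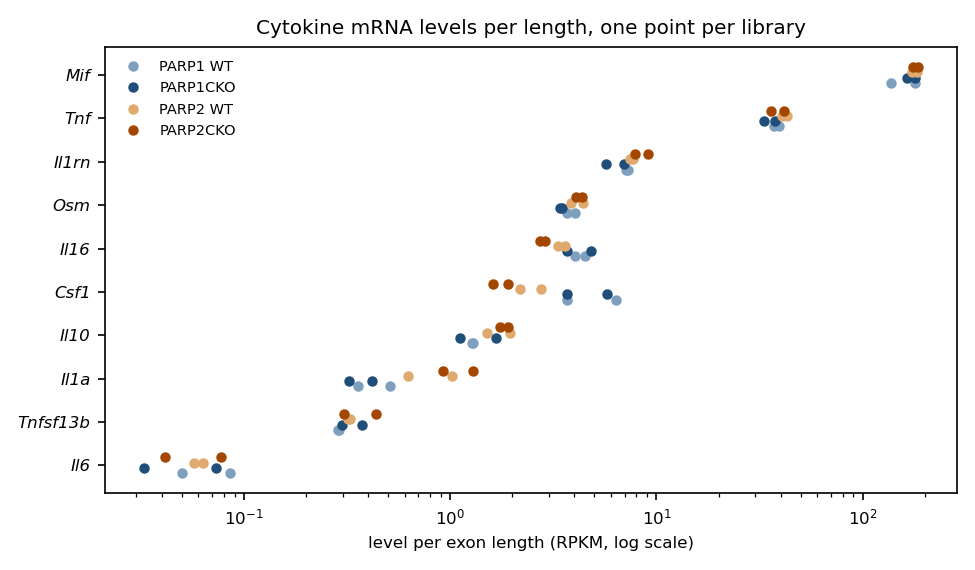
Levels of the 10 cytokine genes per exon length (RPKM, log axis), with a point for each of 8 libraries coloured by group. Mif lies at 137 RPKM and above, Il6 at 0.0852 and below, and the PARP1 and PARP2 points separate for Csf1 and Il1a.

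The libraries held between 37852450 and 61845125 counts, and 13197 genes passed edgeR's filter on low counts, among them 9 of the 10 cytokine genes. The deleted genes were read first. Parp1 stood at 202 and 211 CPM (counts scaled to a common library size with TMM factors) in the PARP1 controls against 63.2 and 59.1 CPM after deletion, 3.37-fold lower. Parp2 went from 48.2 and 48.3 CPM in its controls to 25.7 and 25.6 CPM after deletion, 1.88-fold lower, so transcript of both genes was still counted in the CKO groups. In PARP2 WT, Parp1 differed between the libraries, 251 against 155 CPM. Itgam, which encodes CD11b, stood between 881 and 1035 CPM in all libraries, and neutrophil and macrophage markers were both abundant. In such bulk RNA, fewer cells of a type and less RNA per cell cannot be told apart.

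Among the pro-inflammatory ligands, Tnf was abundant and even. Tnf (chr17:35199381-35202007, minus strand, in GENCODE for GRCm38), which activates NF-kB through its receptors, read 61.2 and 64.2 CPM in the PARP1 controls, and the PARP1CKO libraries had 61.8 and 54.4 CPM. The PARP2 controls had 66.5 and 70.4 CPM, and the PARP2CKO libraries 59.2 and 67.8 CPM. Each CKO overlapped its control, and the lowest and highest libraries differed 1.29-fold.

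Il1a (chr2:129299610-129309972, minus strand) encodes IL-1 alpha, an alarm signal that acts through the IL-1 receptor. The PARP1 controls had 39 and 35 counts of it and the PARP1CKO libraries 32 and 37, while the PARP2 controls had 116 and 64 and the PARP2CKO libraries 151 and 88. As CPM these were 1.01 and 0.705, then 0.634 and 0.818, then 2.01 and 1.23, and last 2.53 and 1.82. All 4 libraries of the PARP2 line lay above all 4 of the PARP1 line, and within each line the CKO and WT values overlapped. Exons of Il1a overlap the antisense gene Gm14023 over 222 bases, and Gm14023 had between 9 and 26 counts per library.

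Il6 (chr5:30013114-30019981, plus strand), a driver of the acute phase response, had between 4 and 9 counts per library and 57 in all, and so did not enter the tests. Its level was 0.207 and 0.121 CPM for the PARP1 controls, 0.0793 and 0.177 CPM for PARP1CKO, 0.138 and 0.154 CPM for the PARP2 controls, and 0.101 and 0.186 CPM for PARP2CKO. All groups overlapped. The floor of 3 counts corresponds to between 0.0503 and 0.0775 CPM, close to the lowest libraries.

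Osm (chr11:4236420-4241026, plus strand), an IL-6 family ligand, read 9.15 and 8.40 CPM in the PARP1 controls, with 7.73 and 7.90 CPM after PARP1 deletion. The PARP2 controls had 8.70 and 9.96 CPM, with 9.24 and 9.84 CPM after PARP2 deletion. Both PARP1CKO libraries were the lowest of the 8, and the PARP2 groups overlapped.

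Il1rn and Il10 are the restraining cytokines. Il1rn (chr2:24336853-24351494, plus strand), which encodes the receptor antagonist of IL-1, read 39.6 and 40.4 CPM in the PARP1 controls, and the PARP1CKO libraries had 38.4 and 31.6 CPM. The PARP2 controls had 42.5 and 41.1 CPM, while PARP2CKO had 50.1 and 43.3 CPM. Both PARP1CKO libraries lay below their controls and both PARP2CKO libraries above theirs, and the PARP2 line lay above the PARP1 line throughout.

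Il10 (chr1:131019845-131024974, plus strand), which dampens macrophage activation, read 1.68 and 1.67 CPM for the PARP1 controls, 2.18 and 1.46 CPM for PARP1CKO, 2.56 and 1.98 CPM for the PARP2 controls and 2.28 and 2.51 CPM for PARP2CKO. Each CKO overlapped its control. The PARP2 WT libraries were both above the PARP1 WT libraries, while the lines as a whole overlapped.

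Of the survival factors, Csf1 varied most. The gene lies at chr3:107741048-107760469, minus strand. It read 33.7 and 19.4 CPM for the PARP1 controls, 19.3 and 30.2 CPM for PARP1CKO, 11.6 and 14.6 CPM for the PARP2 controls, and 8.47 and 10.02 CPM for PARP2CKO. Every PARP2 library lay below every PARP1 library, and the replicates of the PARP1 groups lay far apart. Both PARP2CKO libraries were below both PARP2 WT libraries. M-CSF itself was in the medium of all groups.

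Tnfsf13b (chr8:10006467-10039072, plus strand) read 1.96 and 1.98 CPM for the PARP1 controls, 2.04 and 2.57 CPM for PARP1CKO, 2.18 and 2.23 CPM for the PARP2 controls and 3.00 and 2.09 CPM for PARP2CKO. PARP1CKO lay just above its control, and the PARP2 groups overlapped, with PARP2CKO replicate 1 the highest library.

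The last pair of ligands, IL-16 and MIF, act on cell movement. Il16 (chr7:83642825-83745726, minus strand) read 35.4 and 31.5 CPM for the PARP1 controls, 29.04 and 37.8 CPM for PARP1CKO, 26.3 and 28.3 CPM for the PARP2 controls, and 21.5 and 22.6 CPM for PARP2CKO. The PARP1 groups overlapped, PARP2 WT was lower than both of them, and PARP2CKO was lower again. Exons of Il16 overlap Stard5 on the opposite strand over 1202 bases, and whether counting used the strand is not given in the sources used here. Stard5 went the other way, between 21.7 and 24.5 CPM in the PARP1 libraries and between 26.3 and 29.6 CPM in the PARP2 libraries.

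Mif (chr10:75859353-75860240, minus strand) read 102 and 133 CPM for the PARP1 controls, 134 and 122 CPM for PARP1CKO, 129 and 136 CPM for the PARP2 controls, and 139 and 131 CPM for PARP2CKO. PARP1 WT replicate 1 was the lowest library, and all groups overlapped.

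**Figure D2:**
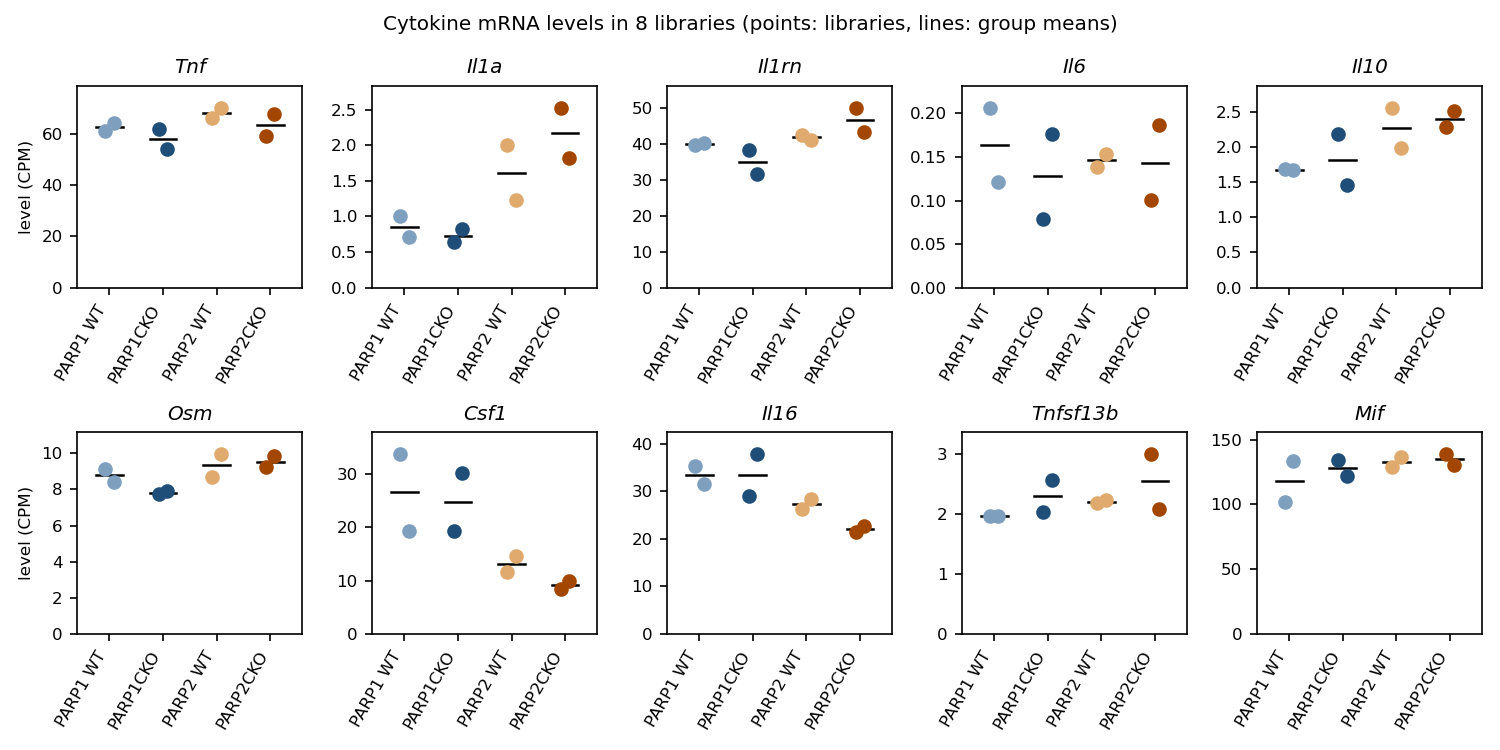
Level of each cytokine gene in CPM (linear axes from 0) in the 4 groups, with points for libraries and lines for group means. Csf1 falls from 33.7 CPM in a PARP1 WT library to 8.47 CPM in a PARP2CKO library, Il1a is higher in the PARP2 groups, and Tnf and Mif are nearly level.

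The comparison of PARP1CKO with PARP1 WT asks which cytokine mRNAs depend on PARP1 in IMCs. None of the 9 tested genes was called by edgeR's quasi-likelihood test at a Benjamini-Hochberg adjusted p under 0.05, beside 14 of all genes tested (0.106%). None had an unadjusted p under 0.05 either, beside 11.3% of all genes, and DESeq2 called none. Log2 fold changes lay between -0.22 for Il1a (SE 0.35) and 0.22 for Tnfsf13b (SE 0.21), with a median of -0.09 against 0.01 over all genes. The smallest adjusted p was 0.475, for Il1rn at -0.19 on the log2 scale (SE 0.095).

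The groups did not overlap for 3 of the 9 genes, Osm and Il1rn lower and Tnfsf13b higher, beside 41.2% of all genes. For Tnf the log2 fold change was -0.11 with a 95% interval from -0.29 to 0.067. For Csf1 it was -0.09 with an interval from -0.69 to 0.51. Zfp36, which destabilises Tnf mRNA, read 207 CPM in the PARP1 controls and 161 CPM after deletion (log2 -0.37, adjusted p = 0.176 from edgeR), and DESeq2 called it.

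The comparison of PARP2CKO with PARP2 WT asks the same of PARP2. Again none of the 9 genes was called by edgeR, beside 7 of all genes (0.053%), and DESeq2 called none. Il16 had an unadjusted p under 0.05, which makes 1 of 9 beside 4.83% of all genes. Its log2 fold change was -0.31 (SE 0.11), and the adjusted p was 0.931. Csf1 stood at -0.50 (SE 0.29), with a 95% interval from -1.15 to 0.15, and Il1a at 0.43 (SE 0.27), with an interval from -0.19 to 1.05. The groups did not overlap for Il16 and Csf1, both lower, and Il1rn, higher, again 3 of 9, beside 37.2% of all genes. The median over the 9 genes was 0.03 and that over all genes -0.0014.

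Whether the PARP2CKO effect differed from the PARP1CKO effect was tested in the same fit. Such a difference was called by edgeR for none of the 9 genes and for 2 of all genes (0.0152%), and DESeq2 called none of the 9. Il1rn, whose CKO libraries lay below the controls in the PARP1 line and above them in the PARP2 line, differed by 0.35 (SE 0.13, unadjusted p = 0.0258, adjusted p = 0.609). It was the 1 of 9 genes with an unadjusted p under 0.05, beside 7.69% of all genes. For Tnf the effects differed by 0.0017 with a 95% interval from -0.25 to 0.25.

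The controls themselves were compared because each CKO was read against its own. Between PARP2 WT and PARP1 WT, edgeR called none of the 9 genes and 3.16% of all genes. Unadjusted p-values were under 0.05 for 3 of 9, beside 18.9% of all genes, and groups did not overlap for 7 of 9, beside 51.9%. These 3 were Csf1 at -1.02 (SE 0.27, adjusted p = 0.0922), Il1a at 0.94 (SE 0.31, adjusted p = 0.156) and Il16 at -0.29 (SE 0.11, adjusted p = 0.209). With edgeR's likelihood-ratio test 1 of the 9 was called, and it was Csf1, while DESeq2 called none. The likelihood-ratio test also called more of all genes than the 3.16% above, as counted under the processing settings below. Csf1 was also called without PARP1 WT replicate 2 (edgeR adjusted p = 0.0353), where Mif was called too (0.0496), and without PARP1CKO replicate 1 (0.0453) or replicate 2 (0.0450). Without PARP1 WT replicate 2 that group is 1 library, which is assumed to vary like the other groups.

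The levels of Csf1, Il1a, Il16 and Il1rn separated by line. Within the PARP2 line Csf1, Il16 and Il1rn also did not overlap between CKO and control, 3 of 9 beside 37.2% of all genes. None of these 3 was called there. A contrast of all 4 PARP2 libraries with all 4 PARP1 libraries was added after the separation by line was seen. In it 4 of the 9 genes were called by edgeR, beside 16.4% of all genes. In the same 4 the lines did not overlap, beside 20.4% of all genes. Since the contrast was chosen from these levels, its counts, p-values and calls of single genes are a description. Line and any batch of the line cannot be told apart.

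Csf1 averaged 25.7 ± 7.43 CPM (SD, n = 4) in the PARP1 line and 11.2 ± 2.60 CPM (SD, n = 4) in the PARP2 line, 2.33-fold lower in the latter (log2 -1.22, SE 0.20, edgeR adjusted p = 0.00469). Il1a averaged 0.792 ± 0.163 and 1.90 ± 0.537 CPM and was 2.41-fold higher in the PARP2 line (log2 1.27, SE 0.22, edgeR adjusted p = 0.00652). Il16 averaged 33.4 ± 3.91 and 24.7 ± 3.16 CPM (log2 -0.45, SE 0.080, edgeR adjusted p = 0.00749). These 3 kept the call under all settings tried, including the replicate block and each library left out. As the contrast was chosen from the same levels, this restates the separation already seen.

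Il1rn averaged 37.5 ± 4.03 and 44.3 ± 4.01 CPM (log2 0.24, SE 0.066, edgeR adjusted p = 0.0381). The controls alone read 41.8 CPM in PARP2 WT and 40.0 CPM in PARP1 WT (log2 0.065, edgeR adjusted p = 0.758), so the line value also carries the opposite shifts of the CKO groups. The call was lost with library size alone and without any of 6 libraries, with adjusted p-values up to 0.134. Tnf, Osm, Il10, Tnfsf13b and Mif were not called, with log2 values between 0.12 for Mif and 0.41 for Il10. Il10 was called without PARP1CKO replicate 1 (edgeR adjusted p = 0.0310) and Mif without PARP1 WT replicate 2 (0.0203).

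**Figure D3:**
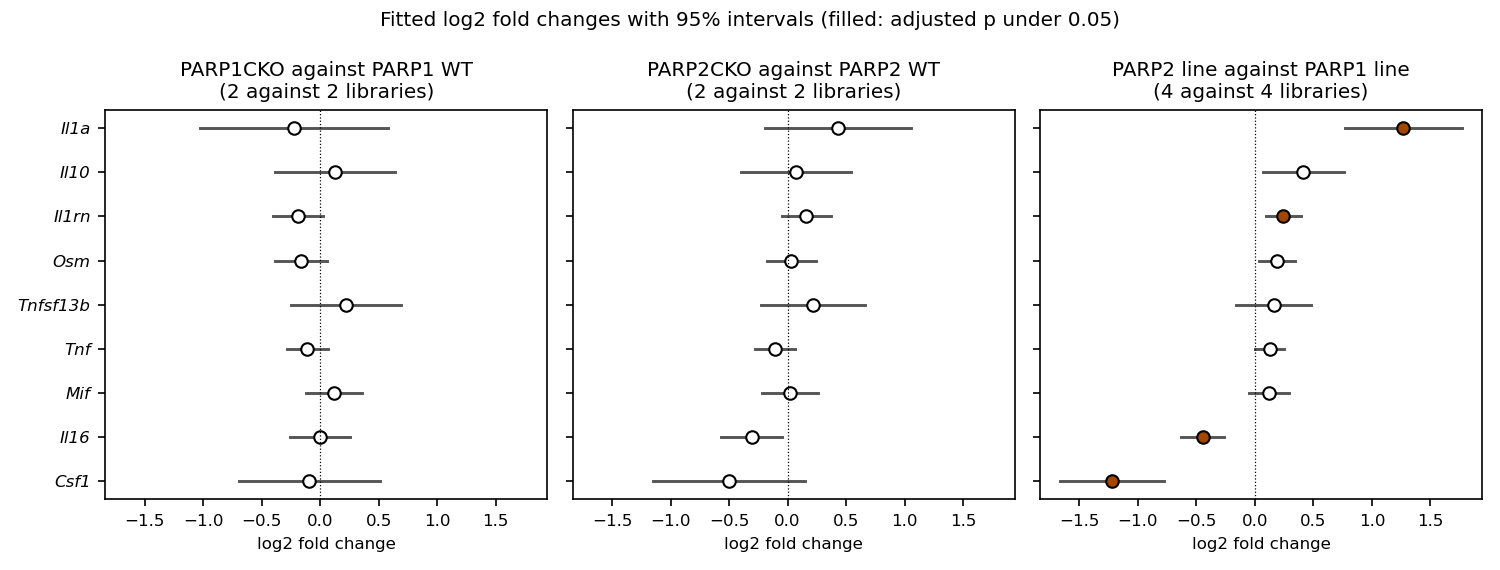
Fitted log2 fold changes of the 9 tested cytokine genes with 95% intervals in 3 contrasts, filled where the adjusted p was under 0.05. Intervals cross 0 in the CKO contrasts for all genes but Il16 in PARP2CKO, and Csf1 (-1.22) and Il1a (1.27) lie farthest out between the lines.

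The ratios of IL-1 transcripts both carry the difference in Il1a, which is their denominator, and each also carries that of its numerator. They are given as a description. Il1rn exceeded Il1a per length (RPKM ratio) between 13.8 and 21.6 times in the PARP1 libraries and between 7.06 and 11.9 times in the PARP2 libraries. The ratio of Il1b to Il1a lay between 5.27 and 6.33 in the PARP1 libraries and between 0.912 and 3.01 in the PARP2 libraries. Il1b encodes IL-1 beta, the form cut by caspase-1. It read 5.35, 4.31, 3.23 and 4.82 CPM in the PARP1 libraries and 2.42, 3.58, 2.23 and 1.97 CPM in the PARP2 libraries. Il1b was thus lower in the PARP2 line, with overlap, where Il1a was higher (log2 -0.81, edgeR adjusted p = 0.0139 in the added contrast).

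The genes closest in pattern to Csf1 over the 8 libraries, by root mean square difference of centred log2 CPM, were Aqp9, Gbp8, Stc2 and Cth, with differences between 0.15 and 0.19. Aqp9, a glycerol and water channel, read between 4.59 and 15.4 CPM. Stc2 had between 6 and 25 counts per library and Cth between 13 and 50, so their patterns rest on few counts. Those closest to Il1a were Mmp14, Myo18b, Ms4a6b and Gngt2, with differences between 0.24 and 0.26. Mmp14, a membrane-bound matrix protease, read between 3.27 and 4.03 CPM in the PARP1 libraries and between 6.25 and 9.76 CPM in the PARP2 libraries.

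**Figure D4:**
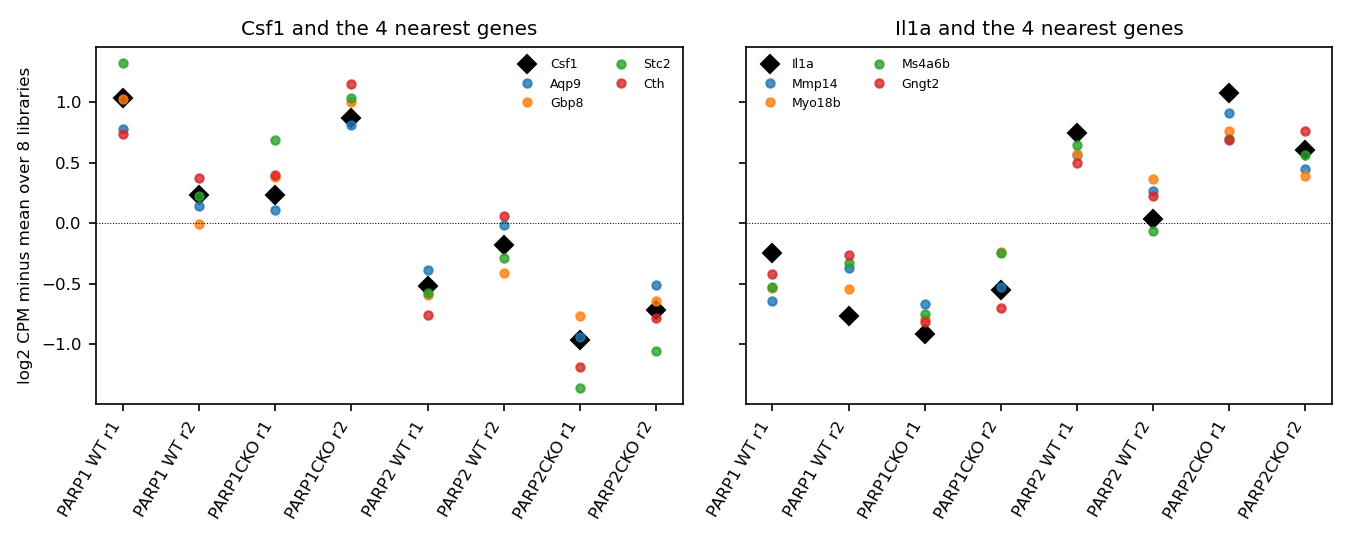
Log2 CPM of Csf1 and Il1a (diamonds) and of the 4 genes nearest to each (circles), centred on each gene's mean over the 8 libraries on the horizontal axis. The PARP2 libraries lie below the PARP1 libraries in the Csf1 panel and above them in the Il1a panel.

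Receptors of the 10 ligands were measured alongside. Of 18 receptor genes 16 were tested, and none was called in either CKO comparison, with 3 at an unadjusted p under 0.05 in PARP1CKO (11.3% of all genes) and 0 in PARP2CKO (4.83%) and none called by DESeq2. Csf1r, the receptor of CSF1, read between 1134 and 1273 CPM in all 8 libraries. The TNF receptor Tnfrsf1a lay between 160 and 172 CPM. Tnfrsf1b, the inducible TNF receptor, read 198, 212, 200.4 and 199 CPM in the PARP1 libraries and 262, 242, 282 and 254 CPM in the PARP2 libraries, without overlap. It was called between the controls (log2 0.30, edgeR adjusted p = 0.0368).

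Tnfrsf13c, the BAFF receptor of B cells, was lower in PARP2 WT (0.570 CPM, against 1.36 CPM in PARP1 WT, log2 -1.24, edgeR adjusted p = 0.0407), a call that DESeq2 did not make. In the added contrast Tnfrsf13c, Il1r2, the IL-1 decoy receptor, and Lifr were lower, Tnfrsf1b was higher, and 12 receptors were not called, so 4 of 16 were, beside 16.4% of all genes. Between the controls it was 2 of 16, beside 3.16%. Il1r1 reached at most 0.588 CPM and Osmr at most 0.201 CPM, while Il10rb lay between 246 and 265 CPM and Il6st, the shared signal chain of IL-6 and OSM, between 131 and 147 CPM.

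Other cytokines gave 18 tested genes of 28 in the table, and none was called in either CKO comparison by edgeR or DESeq2, with 1 at an unadjusted p under 0.05 in PARP1CKO (11.3% of all genes) and 0 in PARP2CKO (4.83%). Tnfsf13 (APRIL), the relative of BAFF, read 17.01, 22.01, 16.7 and 14.05 CPM in the PARP1 libraries and 40.6, 40.7, 43.3 and 46.3 CPM in the PARP2 libraries. It was the 1 gene of the 18 called between the controls, beside 3.16% of all genes (log2 1.05, edgeR adjusted p = 0.00295). Ltb, Ebi3 and Il1b were lower and Tnfsf13 higher in the PARP2 line in the added contrast, 4 of 18 beside 16.4% of all genes.

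**Figure D5:**
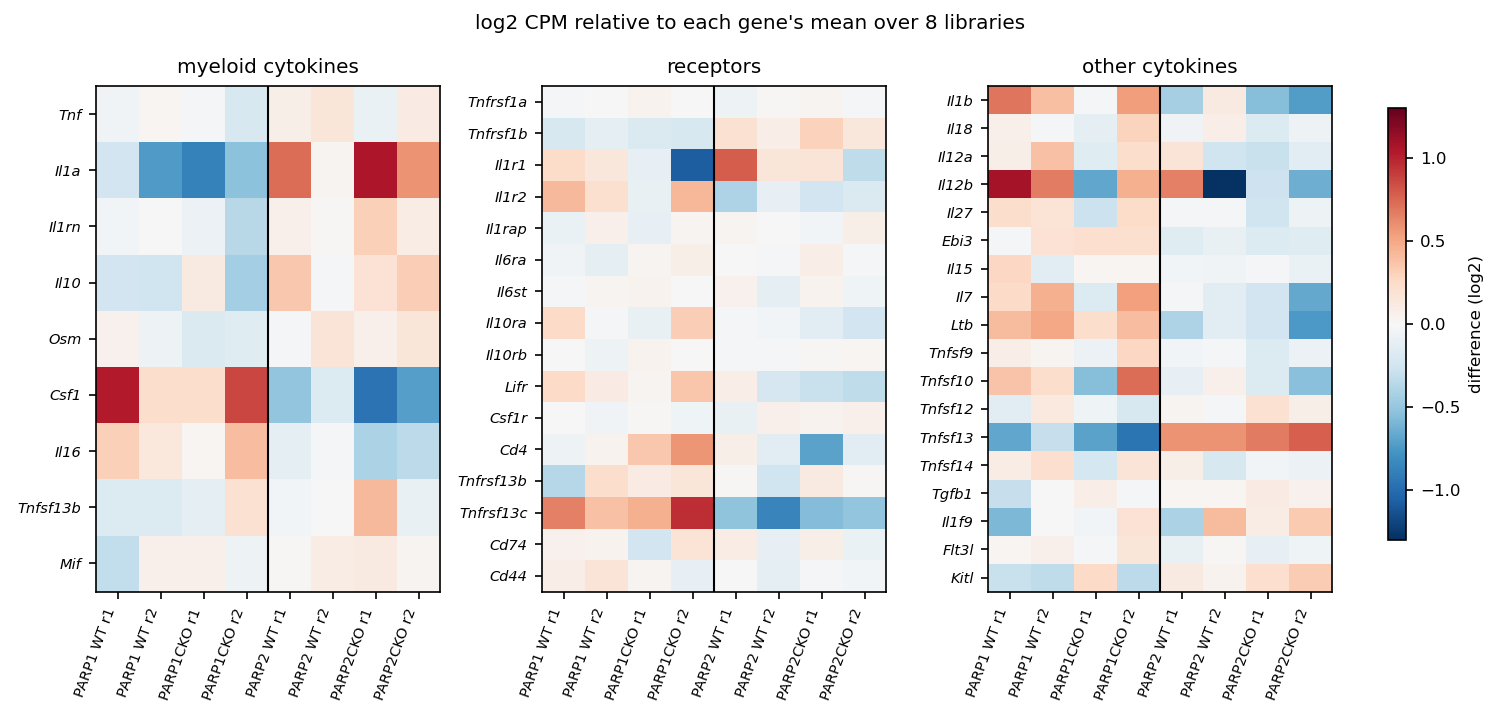
Heat maps of log2 CPM relative to each gene's mean over 8 libraries, for the tested cytokine genes, their receptors and other cytokines, with a line between the PARP1 and PARP2 libraries. Csf1, Il1a, Tnfrsf13c and Tnfsf13 change colour at the line, and Tnf, Csf1r and Tnfrsf1a stay pale.

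Genes that control release or mRNA decay were measured too. All 14 proteases and regulators were tested and none was called in a CKO comparison or between the controls, with 6 at an unadjusted p under 0.05 in PARP1CKO (11.3% of all genes), 0 in PARP2CKO (4.83%) and 5 between the controls (18.9%). DESeq2 called 1 of them, Zfp36, in PARP1CKO. Adam17, which sheds TNF and its receptors, read between 190 and 192 CPM in the PARP1 libraries and between 198 and 213 CPM in the PARP2 libraries. In the added contrast Adam17, Furin and Zfp36 were higher and Zfp36l1 lower in the PARP2 line, 4 of 14 beside 16.4% of all genes. Casp1 lay between 78.7 and 92.0 CPM.

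Of 18 NF-kB feedback and target genes and 10 STAT3 feedback and target genes, edgeR called none in a CKO comparison or between the controls. At an unadjusted p under 0.05 there were 4, 1 and 5 of the NF-kB genes and 1, 0 and 2 of the STAT3 genes. These counts in the same comparisons stood beside 11.3%, 4.83% and 18.9% of all genes. DESeq2 called only Tnip1, between the controls, where its share of all genes is not given here. Nfkbia, the NF-kB inhibitor, lay between 50.6 and 60.4 CPM. Pim1, a kinase induced through STAT3, averaged 40.1 CPM in the PARP1 controls and 33.8 CPM after deletion (adjusted p = 0.186 from edgeR). Cxcl2, a neutrophil attractant, read 3.46 and 2.42 CPM in the PARP1 controls and 1.31 and 1.48 CPM after deletion, without overlap (adjusted p = 0.271 from edgeR). In the added contrast 5 of the 18 NF-kB genes were called, beside 16.4% of all genes, Ptgs2, Birc3 and Tnip1 lower and Nfkbia and Nfkb2 higher in the PARP2 line, and none of the STAT3 genes.

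Of 22 early response genes, which are switched on within a short time of a stimulus, edgeR called 2 in PARP1CKO (0.106% of all genes) and none in PARP2CKO (0.053%). Fos, an AP-1 subunit, fell from 160 to 58.4 CPM after PARP1 deletion (log2 -1.45, edgeR adjusted p = 0.0355), and Dusp1, which switches off MAP kinases, from 57.6 to 24.9 CPM (log2 -1.20, edgeR adjusted p = 0.0187). In PARP1CKO 10 of the 22 had an unadjusted p under 0.05, 8 of them lower, beside 11.3% of all genes, and the median log2 fold change was -0.17 against 0.01 over all genes. DESeq2 called 6 of them, all lower. In both CKO comparisons DESeq2 called more of all genes than edgeR did, as counted under the processing settings below. In PARP2CKO 5 of the 22 had an unadjusted p under 0.05, all lower, beside 4.83% of all genes, and DESeq2 called 1, Fosb. The lists were chosen with earlier results of these data known, so the counts and the median of this list are a description.

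Within this list the largest changes in both CKO comparisons were those of Egr1 and Fosb, and edgeR did not call them. Egr1, a zinc finger factor, read 72.5 and 51.7 CPM in the PARP1 controls against 14.5 and 7.17 CPM after deletion (log2 -2.51, edgeR adjusted p = 0.0597). In the PARP2 line it read 41.0 and 79.1 CPM against 17.6 and 22.6 CPM (log2 -1.58, edgeR adjusted p = 0.538). Fosb, another AP-1 subunit, averaged 6.64 CPM against 0.776 CPM in the PARP1 line (log2 -3.08, edgeR adjusted p = 0.0549) and 3.21 CPM against 1.17 CPM in the PARP2 line (log2 -1.42, edgeR adjusted p = 0.849). Between the controls Egr2 was called, with 11.01 CPM in PARP2 WT and 4.64 CPM in PARP1 WT (log2 1.25, edgeR adjusted p = 0.00159). In the added contrast 6 of the 22 were called, beside 16.4% of all genes, with Egr2, Gadd45b, Nfkbia, Fos and Zfp36 higher and Btg2 lower in the PARP2 line. Fos was level between the controls (161 CPM in PARP2 WT and 160 CPM in PARP1 WT, log2 0.0066) and Zfp36 nearly so (219 and 207 CPM, log2 0.077), so their line values carry the low PARP1CKO libraries.

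Several lists of markers of other cells differed between the lines. The summed level of 8 B cell markers lay between 29.6 and 43.3 CPM in the PARP1 libraries and between 8.18 and 11.5 CPM in the PARP2 libraries, and all 7 tested markers were called lower in the added contrast, in which 16.4% of all genes were called in either direction. The sum of 8 basophil and mast cell markers lay between 55.1 and 60.1 CPM and between 25.4 and 35.1 CPM, with all 8 called lower. Kit alone made up between 28.1 and 31.7 CPM of it in the PARP1 libraries and between 14.4 and 18.4 CPM in the PARP2 libraries. Of 9 neutrophil markers edgeR called 4 lower and 0 higher, with overlapping sums between 2497 and 3171 CPM and between 2596 and 3203 CPM. The fitted change was negative for 6 of the 9 and positive for 3, and DESeq2 called 4 lower and 1, Camp, higher. The 5 granulocyte progenitor markers were all called higher, with sums between 263 and 311 CPM and between 359 and 406 CPM. Of 10 macrophage markers 5 were called higher, with sums between 4596 and 4904 CPM and between 4973 and 5442 CPM. No marker of these 5 lists was at 0 counts in any library, and Il1r2 is both a receptor and a neutrophil marker here. Between CKO and control libraries edgeR called no marker, and these values stood beside the cytokine results. DESeq2 called 2 neutrophil markers lower in PARP2CKO, Mmp9 and Retnlg, and no other marker in a CKO comparison. It also called more of all genes there than edgeR did, as counted under the processing settings below. In PARP2CKO, where Csf1 and Il16 lay below their controls, the fitted change was negative for 8 of 8 basophil and mast cell markers, and the groups did not overlap for 6 of them (37.2% of all genes), with 3 at an unadjusted p under 0.05 (4.83%). The sums were 35.1 and 31.8 CPM in the PARP2 controls and 25.4 and 25.8 CPM after deletion. Within them Hdc differed between the control libraries, 5.53 against 0.980 CPM, and read 0.805 and 0.870 CPM after deletion. Of the 9 neutrophil markers 8 had a negative change in PARP2CKO, 6 without overlap and 3 at an unadjusted p under 0.05, beside the same shares. Of the 10 macrophage markers 3 were higher at an unadjusted p under 0.05 in PARP2CKO (4.83% of all genes in either direction). The fitted change was positive for 6 of these 10 and negative for 4. All 7 monocyte markers had a negative change in PARP1CKO and 6 of 7 in PARP2CKO, with 2 at an unadjusted p under 0.05 in each, beside 11.3% and 4.83% of all genes. Their sums were 274 and 309 CPM in the PARP1 controls and 227 and 273 CPM after deletion, and 326 and 347 CPM in the PARP2 controls and 304 and 318 CPM after deletion. Of 4 tested erythroid markers 2 were called lower in the added contrast, of 7 monocyte markers 1 higher and 1 lower, and of 6 tested stromal markers 1 higher. None of 3 tested T and NK cell markers and none of 5 endothelial markers was called there. At an unadjusted p under 0.05 there were 1 and 2, beside 4206 of all 13197 genes tested. The part of all these markers in the differences of Csf1, Il1a, Il16 and Il1rn was not tested.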

How the data were processed

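Total RNA of 8 libraries was sequenced as single-end 75-base reads from a stranded kit. Per the labels and the study's methods, the authors mapped reads to mm10 with TopHat 2.0.12, marked duplicates with Picard 1.127 and deposited raw counts per gene from featureCounts. The annotation, use of strand and handling of marked duplicates are not given in the sources used here. All values used are these deposited counts. No column lay outside the 8 libraries. Totals were between 37852450 and 61845125 counts per library, and floors cover counting error only. The 95% intervals are those of the edgeR fit and include the spread between libraries.

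Counts were tested with edgeR 4.0.16 in R 4.3.3 (filterByExpr, TMM, quasi-likelihood test on all 8 libraries, a mean for each group, Benjamini-Hochberg over 13197 genes, threshold 0.05). DESeq2 1.42.0 was an alternative. Log2 CPM used a prior count of 2. RPKM used the union of exons in GENCODE M21. The script was tested on simulated data. Replicates differed beyond sampling noise, with chi-square per gene between 8.32 and 12.6, and counted singly. With 2 against 2 libraries an exact two-sided permutation test cannot go below p = 0.333, so none was used. The alternatives were other size factors, no filter or at least 1 CPM in 2 libraries, a likelihood-ratio test, the 4 libraries of a comparison, a replicate block and each library left out.

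All 10 cytokines, Parp1 and Parp2 are named. From 6 lists of related genes, those called are named, with some of those of the largest change (up to 3 a list and comparison) and some that bind or release a cytokine described. Itgam, Stard5 and Gm14023 were added after values were seen. Adgre1 appears in the table as Emr1. The 4 tested genes nearest in pattern to each of Csf1 and Il1a are given, where the rule set 5, because 1 item is not reported here. Members and lists were chosen with earlier results of these data known. Figures were drawn with matplotlib.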

Additional observations from a re-analysis of the deposited data

Results flagged for a closer look

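Il1rn was flagged because both PARP1CKO libraries lay below both PARP1 WT libraries and both PARP2CKO libraries lay above both PARP2 WT libraries. Groups did not overlap for 41.2% of all genes in PARP1CKO and 37.2% in PARP2CKO. The effects differed by 0.35 on the log2 scale, with an unadjusted p of 0.0258 and an adjusted p of 0.609 from edgeR. The difference thus did not pass over all genes, of which 7.69% had an unadjusted p under 0.05. With each library left out in turn it lay between 0.22 and 0.50. The cause was not tested.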

How the results depend on the processing

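Of 702 log2 fold changes of the cytokine genes under other settings, 658 kept their direction and side of the threshold, 29 reversed and 15 crossed it. No cytokine gene was called in the CKO comparisons or for their difference under any setting. Limits include 2 libraries per group, 32 to 151 counts for Il1a and 4 to 9 for Il6.

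Counts of genes called moved with the test. The likelihood-ratio test called 146 genes in PARP1CKO, 39 in PARP2CKO, 72 for the difference and 910 between controls. Without a filter these were 101, 26, 61 and 872, and DESeq2 gave 86, 27 and 45 for PARP1CKO, PARP2CKO and the difference. Between controls the likelihood-ratio test and the fit without a filter each called 1 cytokine gene, Csf1. Leaving out each library gave 1 to 34 genes in PARP1CKO, 4 to 19 in PARP2CKO, 1 to 16 for the difference, 85 to 566 between controls with 0 to 2 cytokine genes, and 1082 to 2327 between the lines with 3 to 5 cytokine genes. Without PARP1 WT replicate 2, Csf1 and Mif were called between the controls (adjusted p = 0.0353 and 0.0496), with that group then 1 library assumed to vary like the others.

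Same-numbered libraries deviated with a correlation of -0.13 in the PARP1 line and 0.15 in the PARP2 line. A single value per line does not settle whether the numbers pair the libraries, and the main fit did not pair them. With the replicate block 17, 11, 1, 267 and 1757 genes were called in the 5 contrasts, and no call of a cytokine gene changed. With numbers crossed in the PARP1 line, an alternative added after seeing the data, 46 genes and 0 cytokine genes were called in PARP1CKO.

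Reversed values were all near 0 or from a library left out, and the cause was not tested. With library size alone, Mif in PARP2CKO was -0.0039 and the difference for Tnf -0.018. Over the libraries left out, PARP1CKO gave -0.48 to 0.033 for Il1a, -0.45 to 0.35 for Csf1, -0.20 to 0.18 for Il16, -0.063 to 0.32 for Mif and -0.20 to 0.38 for Il10. PARP2CKO gave -0.063 to 0.13 for Osm, -0.022 to 0.065 for Mif, -0.098 to 0.27 for Il10 and -0.075 to 0.45 for Tnfsf13b. The difference gave -0.30 to 0.22 for Tnfsf13b, -0.30 to 0.086 for Mif, -0.31 to 0.27 for Il10 and -0.097 to 0.099 for Tnf. Between controls it was -0.0083 to 0.38 for Mif and -0.012 to 0.18 for Osm.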
